A study of Columba livia with 9 samples.

Results

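The lncRNAs described here are 150 assembled lncRNAs of the pigeon bursa of Fabricius (BF) that were higher at 13 and 26 days of age than at 1 day. An assembled lncRNA carries a number from the authors' transcript assembly and has no NCBI gene ID. Of the 19129 lncRNAs listed, 16589 were assembled and 2540 were annotated. Each TPM value was divided by the median TPM of its library over the 10027 mRNAs above 0.5 TPM in all 9 libraries. A lncRNA qualified when its mean over the 9 libraries was at least 1 TPM and its scaled level in each of the 6 libraries of 13D and 26D was above its highest level at 1D. Of 8687 assembled lncRNAs with that mean, 416 (4.79%) qualified. The 150 with the highest log2 ratio of the mean of 13D and 26D to the mean of 1D were taken, after 0.01 was added to each mean, and 266 were not taken. These lncRNAs were thus chosen by their measured levels at 1D against the elder stages, and those levels are given below as a description, with no test.

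Total RNA was taken from whole BFs of 9 female White-King squabs (Columba livia) that were 1 day (1D), 13 days (13D) or 26 days (called 26D) old, 3 at each age. Each library came from a different squab, and the labels name no treatment for any stage. The study asked how lncRNAs and mRNAs of the organ change while it grows after hatching.

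The BF is a sac beside the cloaca of birds, and it is where avian B lymphocytes multiply and diversify their immunoglobulin genes. Its mucosal folds fill with lymphoid follicles, in which B cells sit in a frame of epithelium, blood vessels and connective tissue. A lncRNA is a long transcript without a recognised open reading frame, and many lncRNAs are transcribed beside a protein-coding gene. The assembled lncRNAs are known here by number only, and their sequences and positions were not analysed here.

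Values are given as scaled TPM, that is TPM divided by the median of its library and multiplied by the geometric mean of the 9 medians, and they are listed in the order of replicates 1, 2 and 3. The library medians ranged from 5.95 TPM in 26D replicate 1 to 19.9 TPM in 1D replicate 1. One assembled lncRNA outside the 150, G17924, held between 13.9% and 39.0% of all TPM of a library, and it is named because of that share. The values hold no read counts of single transcripts, so the reads behind each level and its counting error are unknown. The study does list mapped reads by library, and 1D replicate 2 had the fewest and the lowest share mapped. When the rule was applied to TPM as deposited, 82 lncRNAs passed and 69 of the 150 were among them. In RNA from a whole organ, fewer cells of a type and less RNA per cell cannot be told apart.

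The median of the stage means over the 150 lncRNAs was 0.760 scaled TPM at 1D, 3.89 at 13D and 3.85 at 26D. The mean at 13D was between 1.90 and 58.6 times that at 1D, with a median of 3.90, and it was over 2 times that at 1D for 147 of the 150. The mean at 26D was between 1.94 and 132 times that at 1D, with a median of 4.12, and it was over 2 times that at 1D for 149. The exceptions were G37653, G30585 and G19434 at 13D and G22576 at 26D. In the elder stages every one of the 150 was listed above 0.1 TPM in all 6 libraries, whereas 142, 128 and 140 were above it in the 3 libraries of 1D. At least 1 library of 1D was listed at 0 for 12 of them, and G37624 alone was listed at 0 in more than 1.

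The distance between the groups varied. The lowest elder library was between 1.00 and 9.90 times the highest library of 1D, with a median of 1.55, and it exceeded 2 times for 50 lncRNAs. Leaving out a single library moved the ratio of 13D to 1D by over 1.5 times for 51 of the 150, and that of 26D to 1D for 48. With any 1 library left out the lowest ratio over the 150 was 1.65 at 13D and 1.53 at 26D. At the edge of the selection, the last lncRNAs inside were G18349, G19434 and G3305, with log2 ratios of 1.36, 1.34 and 1.33. The first outside were G12868, G22570 and G291, with log2 ratios of 1.31, 1.30 and 1.29.

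**Figure D1:**
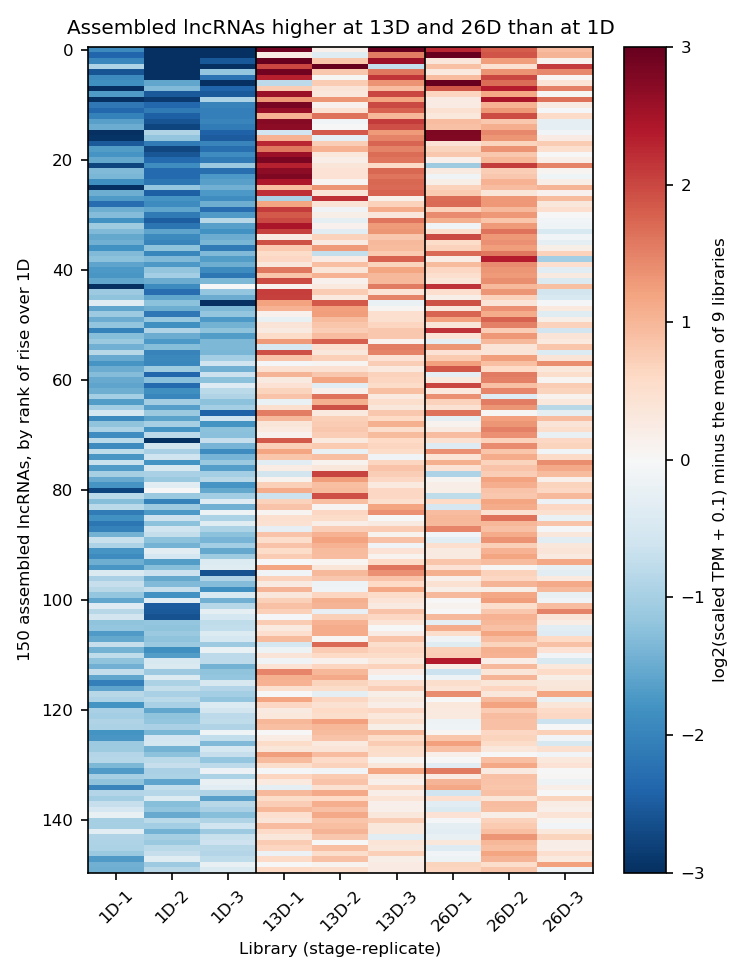
Levels of the 150 assembled lncRNAs in the 9 libraries. Rows are lncRNAs in order of their log2 ratio of elder stages to 1D, columns are libraries, and colour is log2(scaled TPM + 0.1) minus the mean of the 9 libraries of that lncRNA. The 3 columns of 1D are blue or pale by selection. Many rows near the top are highest in 13D replicate 1, but others are not, such as G5969 and G32839, which are highest in 26D replicate 1.

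G27299 had the highest log2 ratio, 5.18. Its levels were 1.56, 0.0579 and 0.310 scaled TPM at 1D, 47.1, 6.82 and 50.1 at 13D, and 29.8, 21.8 and 11.6 at 26D. The lowest elder library, 13D replicate 2, was still above all 3 of 1D, although those of 1D were themselves unequal. The ratio of means was 54.1 at 13D and 32.9 at 26D, and without 1D replicate 1, the highest of 1D, these were 189 and 115.

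G5969 followed with a log2 ratio of 4.96. Its levels were 0.150, 0.0377 and 0.0598 scaled TPM at 1D, 1.40, 0.896 and 3.62 at 13D, and 25.5, 4.70 and 2.53 at 26D. Most of its mean at 26D lay in replicate 1, and the ratio of 26D to 1D was 132 with that library and 43.9 without it. It was 223 without 1D replicate 1. Its coefficient of variation over the 6 elder libraries, 147%, was the highest of the 150.

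The third, G18145, had 0.235, 0 and 0.122 scaled TPM at 1D, 11.2, 2.22 and 7.56 at 13D, and 1.55, 2.98 and 1.30 at 26D. It was higher at 13D than at 26D on average, with ratios to 1D of 58.6 and 16.3, but 13D replicate 2 lay within the range of 26D. Without 1D replicate 1 these ratios were 114 and 31.7.

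G37624, next in order, had 0.574, 0 and 0 scaled TPM at 1D, 5.09, 15.0 and 0.690 at 13D, and 2.28, 1.68 and 5.39 at 26D. Its lowest elder library, 13D replicate 3, exceeded the highest of 1D by little, and the ratio of 13D to 1D fell from 36.1 to 15.1 without 13D replicate 2. Its mean at 1D rests on replicate 1 alone, and without that library no ratio can be given. G37893 had 0.309, 0 and 0.997 scaled TPM at 1D, 18.2, 4.23 and 7.25 at 13D, and 2.94, 6.18 and 6.63 at 26D. Here 13D replicate 1 stood above the other 5 elder libraries, and the ratio of 13D to 1D was 22.7 with it and 13.2 without it. Without 1D replicate 3, the highest of 1D, the ratios to 1D were 63.9 at 13D and 34 at 26D.

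Of the remaining lncRNAs with large ratios, G27301 had 0.179, 0 and 0.125 scaled TPM at 1D, 5.13, 0.978 and 4.52 at 13D, and 1.90, 4.12 and 0.994 at 26D. Like G27299, which has a near number, it was lower in 13D replicate 2 than in 13D replicates 1 and 3. G32839 had 0.193, 0.260 and 0 scaled TPM at 1D, 0.506, 1.68 and 2.56 at 13D, and 11.2, 3.24 and 1.29 at 26D. Its coefficient of variation was 115%, the second highest, and its ratio of 26D to 1D was 34.8 with 26D replicate 1, 15.0 without it and 54.4 without 1D replicate 2. G7695 had 0, 0.575 and 0.223 scaled TPM at 1D, 2.80, 2.12 and 3.14 at 13D, and 6.07, 8.55 and 4.78 at 26D. Its 3 stages did not overlap and stood in the order of age, with ratios to 1D of 10.1 and 24.3. These were 24.1 and 58.0 without 1D replicate 2, and 6.73 and 16.2 without 1D replicate 1.

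At the other end of variability, G6889 and G4262 were nearly level over the elder stages. G6889 had 0.416, 0.701 and 0.247 scaled TPM at 1D, 1.47, 1.51 and 1.32 at 13D, and 1.43, 1.26 and 1.60 at 26D, a coefficient of variation of 8.61% over the 6 elder libraries. G4262 had 4.77, 8.70 and 7.78 scaled TPM at 1D, 20.1, 21.2 and 24.3 at 13D, and 19.3, 22.7 and 18.5 at 26D, a coefficient of variation of 10.4%. Over the 150 the median of this coefficient was 40.5%, beside 38.1% over all assembled lncRNAs of at least 1 TPM.

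Most of the 150 were of low abundance. Their mean over the 9 libraries ranged from 1.00 to 174 TPM with a median of 2.82, and 55 were under 2 TPM while 29 were over 10. The 8 most abundant held 40.9% of the TPM of all 150, and G37653 alone held 14.2%. G37653 had 67.8, 112 and 91.0 scaled TPM at 1D, 147, 172 and 195 at 13D, and 824, 181 and 115 at 26D. The value in 26D replicate 1 was far above the other 8 libraries, and the ratio of 26D to 1D was 4.14 with it and 1.64 without it.

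G36721 was the other abundant lncRNA with a wide spread, at 1.81, 8.68 and 32.1 scaled TPM at 1D, 34.4, 39.4 and 94.4 at 13D, and 145, 63.1 and 60.3 at 26D. The highest library of 1D nearly reached the lowest of 13D, and without that library the ratios to 1D rose from 3.95 to 10.7 at 13D and from 6.30 to 17.0 at 26D. Without 13D replicate 3 the ratio of 13D to 1D was 2.6. G33064 had 9.13, 20.9 and 18.6 scaled TPM at 1D, 36.4, 56.0 and 45.2 at 13D, and 55.0, 49.4 and 29.5 at 26D, so that the elder stages overlapped.

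In the other 5 abundant lncRNAs the lowest elder library was 26D replicate 1. G22569 had 27.7, 27.2 and 36.6 scaled TPM at 1D, 105, 103 and 70.3 at 13D, and 45.6, 96.1 and 52.6 at 26D. G22568, the number before it, had 20.3, 22.1 and 21.9 at 1D, 60.8, 73.0 and 49.5 at 13D, and 29.7, 73.1 and 44.4 at 26D. Both varied little within 1D, and at 26D replicate 2 stood above replicates 1 and 3.

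G22571 had 19.0, 19.3 and 18.7 scaled TPM at 1D, 68.3, 76.4 and 40.2 at 13D, and 23.1, 63.9 and 35.0 at 26D. G22567 had 18.5, 18.2 and 19.0 at 1D, 66.8, 71.0 and 40.5 at 13D, and 32.5, 66.1 and 35.9 at 26D. G1297, whose number is far from these, had 22.8, 14.2 and 16.4 at 1D, 64.3, 59.9 and 35.8 at 13D, and 24.1, 60.9 and 36.2 at 26D. In these 3 as well, 26D replicate 2 was the highest library of 26D.

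Many of the 150 carried near numbers. In the list of lncRNA-mRNA pairs that accompanies the study, which holds lncRNAs within 100 kb of a DE mRNA, 58 of the 61 pairs of lncRNAs whose numbers differed by at most 5 (95.1%) shared the same mRNA. Near numbers were therefore read as near positions, which could not be checked for lncRNAs outside that list. With steps of at most 5, a step chosen after the numbers were seen, 84 of the 150 (56%) fell into 20 groups and 66 stood alone. There were 7 groups of 5 or more lncRNAs, with 52 lncRNAs in all. By this measure the 150 stood for 86 separate stretches of numbers, and lncRNAs of a group may share reads of a single transcript.

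The largest group had 16 lncRNAs numbered from G18135 to G18158, of 23 assembled lncRNAs listed in that span. These 16 were all those with a mean of at least 1 TPM. That mean includes the elder libraries in which they were chosen to be high, so this completeness follows in part from the rule. Their summed levels were 3.09, 1.17 and 2.69 scaled TPM at 1D, 82.3, 16.2 and 50.8 at 13D, and 20.1, 25.6 and 13.0 at 26D. All 16 had their highest level in 13D replicate 1, and 13D replicate 2 was below 26D replicates 1 and 2 in the sum. The summed level was 21.5 times that of 1D at 13D and 8.46 times at 26D, and for single lncRNAs the mean of both elder stages was between 5.95 and 38.4 times that of 1D. It also holds the longest run of consecutive numbers, the 6 lncRNAs from G18141 to G18146.

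Another pair of groups was also lowest at 13D in replicate 2. The 8 lncRNAs from G11312 to G11324 summed to 2.64, 1.83 and 2.24 scaled TPM at 1D, 33.7, 10.9 and 17.4 at 13D, and 13.8, 22.6 and 7.56 at 26D. All 8 were highest in 13D replicate 1, and 7 were lowest, among elder libraries, in 26D replicate 3. The 3 lncRNAs from G27299 to G27301 summed to 1.94, 0.0948 and 0.538 scaled TPM at 1D, 55.6, 8.39 and 56.0 at 13D, and 32.2, 27.3 and 13.1 at 26D. Their sum was 46.7 times that of 1D at 13D and 28.3 times at 26D, and 126 and 76.5 times without 1D replicate 1.

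Other groups had a lower ratio and another order of libraries. The 8 lncRNAs from G18345 to G18355 summed to 11.6, 28.3 and 16.0 scaled TPM at 1D, 70.8, 80.8 and 46.1 at 13D, and 42.2, 87.9 and 47.2 at 26D, and 6 of them were highest in 26D replicate 2. The 5 lncRNAs from G28834 to G28838 summed to 11.4, 5.46 and 10.9 at 1D, 27.2, 40.8 and 36.2 at 13D, and 39.6, 57.5 and 32.4 at 26D, and all 5 were highest in 26D replicate 2. The 5 from G22567 to G22576 were the most abundant group, with sums of 88.2, 89.0 and 99.5 at 1D, 314, 333 and 208 at 13D, and 137, 304 and 173 at 26D. In this last group the ratio to 1D was 3.09 at 13D and 2.22 at 26D, and G22570, the first but one outside the selection, lies within its span.

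The next groups were lower in level. The 5 lncRNAs from G21804 to G21810 summed to 6.43, 6.04 and 12.3 scaled TPM at 1D, 31.7, 24.7 and 30.7 at 13D, and 24.4, 46.8 and 30.8 at 26D. The 5 from G9184 to G9189 summed to 2.62, 1.65 and 2.58 at 1D, 7.85, 9.51 and 7.09 at 13D, and 5.98, 9.75 and 5.54 at 26D. In both sums 26D replicate 2 was the highest library, although the elder stages overlapped.

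**Figure D2:**
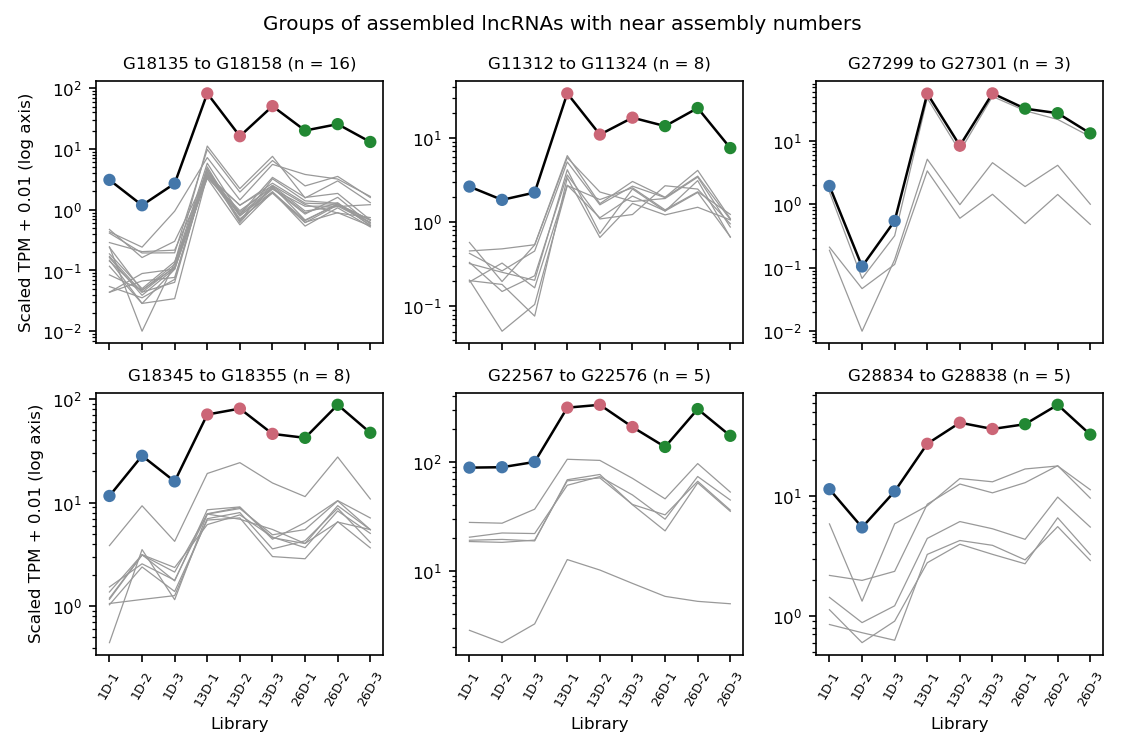
Groups of assembled lncRNAs with near numbers. The vertical axis is scaled TPM + 0.01 on a log scale, the horizontal axis gives the 9 libraries, grey lines are single lncRNAs, and points joined by a black line are the group sum (blue 1D, red 13D, green 26D). Lines join the values of a lncRNA and imply no order among replicates. In the upper 3 groups 13D replicate 2 is the lowest library of 13D, and in the lower 3 groups 26D replicate 2 is the highest of 26D.

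Assembled lncRNAs next in number to one of the 150, but outside it, were counted as well. Of 61 such lncRNAs with at least 1 TPM, 6 (9.84%) had all 6 elder libraries above 1D, beside 266 of 8537 (3.12%) of all assembled lncRNAs outside the 150. The mean of the elder stages was higher than that of 1D for 51 of the 61 (83.6%), beside 60.5%. On TPM as deposited, 1.64% of the 61 had all 6 elder libraries above 1D, beside 0.152%. This count uses the criterion that chose the 150 and may rest on reads shared with them, so it is given as a description only.

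Library by library, the highest of the 6 elder libraries was 26D replicate 2 for 47 of the 150 and 13D replicate 1 for 38. Among all assembled lncRNAs of at least 1 TPM, 14.7% and 25.6% were highest in these libraries. The lowest elder library was 26D replicate 3 for 52 of the 150 and 26D replicate 1 for 42. The shares of all assembled lncRNAs lowest in these libraries were not counted, so no trait of the 150 is read from these counts. The 16 lncRNAs from G18135 to G18158 and the 8 from G11312 to G11324 made up 24 of the 38 highest in 13D replicate 1.

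For 12 of the 150, the list of pairs names a neighbouring mRNA, 9 mRNAs in all. The authors took lncRNAs and mRNAs that were differentially expressed between these stages. They paired them by distance and by correlation over these same libraries, so that a common direction of lncRNA and mRNA is no independent evidence. All 9 mRNAs had their 6 elder libraries above 1D, which this choice favours. Of all 13072 mRNAs, which were not so chosen, 9.76% had them above 1D. BLNK encodes an adaptor that links the B cell receptor to its downstream kinases. BLNK mRNA had 91.9, 119 and 115 scaled TPM at 1D, 220, 224 and 185 at 13D, and 270, 301 and 190 at 26D. Its neighbour G18353 had 3.84, 9.32 and 4.22 at 1D, 19.1, 24.3 and 15.5 at 13D, and 11.4, 27.6 and 10.8 at 26D, and G18350 had 0.436, 3.52 and 1.15, then 7.75, 6.91 and 5.50, then 4.03, 6.48 and 5.48. Both belong to the group from G18345 to G18355.

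CXCR4 encodes a chemokine receptor that guides lymphocyte precursors. Its neighbour G22532 had 0.143, 0.559 and 0.412 scaled TPM at 1D, 0.739, 1.55 and 1.58 at 13D, and 2.62, 1.73 and 0.866 at 26D, while CXCR4 had 109, 192 and 157, then 290, 386 and 388, then 766, 432 and 249. Both were highest in 26D replicate 1 and lowest, at 26D, in replicate 3. IL16 encodes a cytokine that attracts CD4-bearing cells. Its neighbour G33299 had 0.239, 0.152 and 0.376 at 1D, 1.64, 1.49 and 1.19 at 13D, and 1.56, 2.19 and 1.16 at 26D, while IL16 had 30.4, 50.6 and 38.8, then 96.8, 109 and 75.5, then 165, 110 and 69.4.

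TXK encodes a tyrosine kinase of the Tec family, known from lymphocytes of mammals. Its neighbour G6608 had 2.27, 1.61 and 2.14 scaled TPM at 1D, 8.17, 9.32 and 4.13 at 13D, and 6.30, 7.32 and 5.64 at 26D, while TXK had 6.33, 5.80 and 7.54, then 29.7, 21.5 and 10.3, then 27.2, 14.9 and 16.1. In both, 13D replicate 3 was the lowest elder library. FUT8 encodes the fucosyltransferase that adds the core fucose of N-glycans, and 3 of the 150 lay near it. FUT8 mRNA had 37.0, 33.2 and 31.6 at 1D, 71.5, 98.6 and 86.9 at 13D, and 79.9, 97.1 and 67.2 at 26D.

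G8244 had 0.409, 0.742 and 0.277 scaled TPM at 1D, 2.94, 3.40 and 3.25 at 13D, and 2.32, 4.04 and 1.97 at 26D. G8245 had 0.647, 0.765 and 0.391 at 1D, 2.1, 2.81 and 3.48 at 13D, and 1.74, 4.17 and 2.14 at 26D. G8246 had 0.564, 0.346 and 0.300 at 1D, 1.42, 2.32 and 1.85 at 13D, and 0.739, 2.58 and 0.747 at 26D. All 3 lncRNAs beside FUT8 were highest in 26D replicate 2, and the ratio of 26D to 1D for G8246 was 3.36 with that library and 1.84 without it.

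The remaining neighbours are DENND5B, NMRK2, ITGA10 and PTCHD1. DENND5B encodes a DENN domain protein, a family that activates Rab GTPases in membrane traffic. Its neighbour G4883 had 8.50, 17.1 and 8.69 scaled TPM at 1D, 31.2, 36.6 and 37.9 at 13D, and 27.1, 46.0 and 29.1 at 26D, while DENND5B had 5.20, 7.87 and 7.14, then 22.1, 29.2 and 19.7, then 11.6, 28.7 and 15.6. NMRK2 encodes a nicotinamide riboside kinase of NAD synthesis. Its neighbour G28470 had 0.795, 1.86 and 1.48 at 1D, 4.33, 6.04 and 6.33 at 13D, and 16.4, 5.99 and 2.38 at 26D, while NMRK2 had 84.5, 61.3 and 115, then 213, 229 and 335, then 569, 287 and 126. The ratio of 26D to 1D for G28470 was 5.98 with 26D replicate 1 and 3.03 without it.

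ITGA10 encodes an alpha subunit of a collagen-binding integrin. Its neighbour G36632 had 3.59, 4.07 and 3.84 scaled TPM at 1D, 7.07, 14.1 and 29.2 at 13D, and 25.0, 13.1 and 17.8 at 26D, while ITGA10 had 1.06, 1.14 and 3.48, then 3.60, 6.11 and 10.2, then 9.15, 7.13 and 6.74. The ratio of 13D to 1D for G36632 was 4.39 with 13D replicate 3 and 2.77 without it. PTCHD1 encodes a membrane protein with a patched domain, studied in humans for its part in brain development. PTCHD1 mRNA had 0.576, 0.372 and 0.602 at 1D, 2.11, 1.35 and 2.35 at 13D, and 2.1, 1.84 and 1.28 at 26D, and its neighbour G11312 had 0.196, 0.0408 and 0.0955, then 2.71, 1.85 and 2.55, then 1.39, 2.29 and 1.23.

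As a share of its neighbour's level in TPM, which is per length, G11312 was 20.3% ± 12.1 of PTCHD1 (SD, n = 3) at 1D, 125% ± 14.5 at 13D and 95.5% ± 29.0 at 26D. G8244 was 1.41% ± 0.727 of FUT8 (SD, n = 3) at 1D, 3.76% ± 0.336 at 13D and 3.33% ± 0.720 at 26D. In both pairs the 6 elder libraries were above 1D in this share, while in the other 10 pairs the elder libraries and 1D overlapped. The rule chose the lncRNAs by their rise over 1D, which raises this share in the elder stages, so it is given as a description only. For G11312 the share at 1D rests on low levels of 0.196, 0.0408 and 0.0955 scaled TPM.

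**Figure D3:**
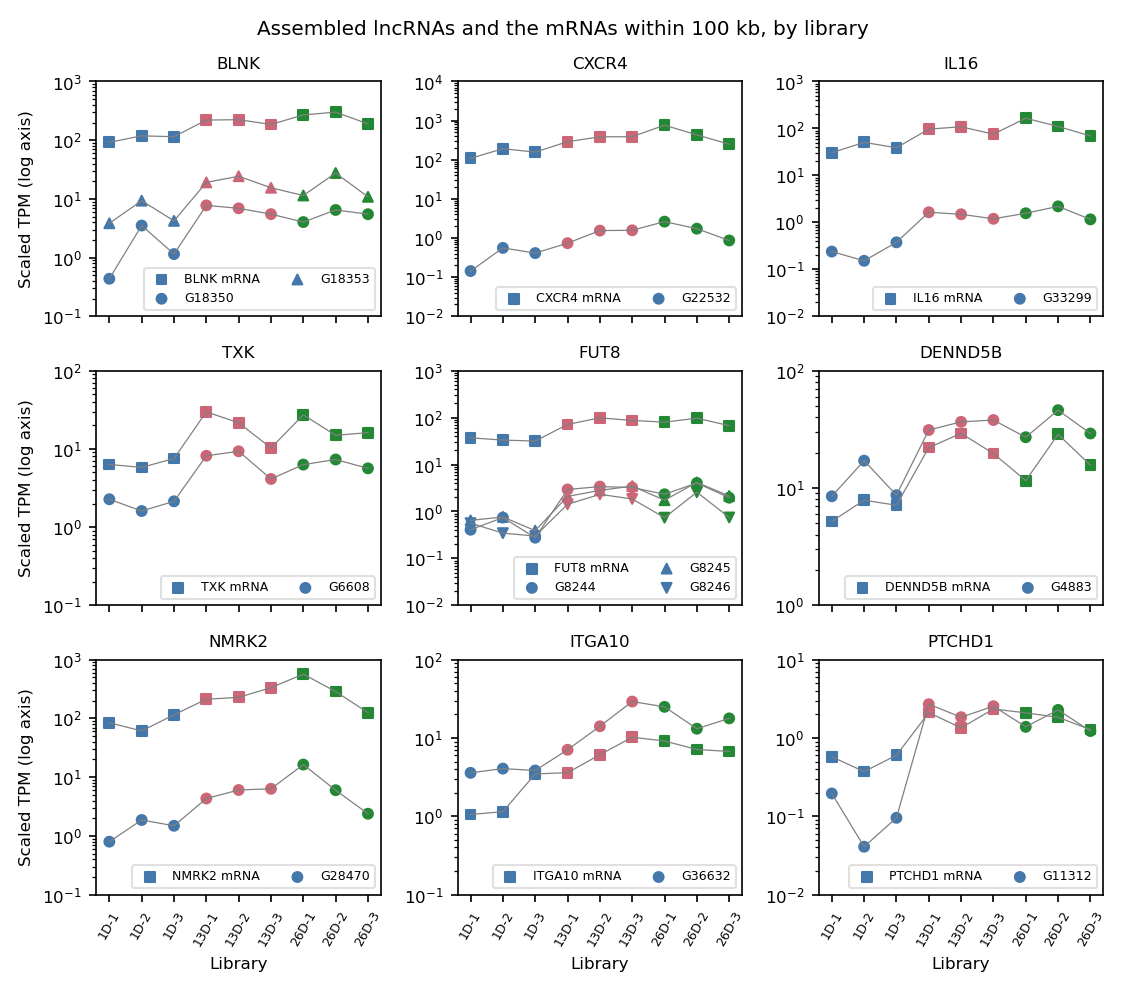
The 12 assembled lncRNAs with a neighbouring mRNA in the list of pairs, 1 panel for each of the 9 mRNAs. The vertical axis is scaled TPM on a log scale, the horizontal axis gives the 9 libraries, squares are mRNAs, other symbols are lncRNAs, and colours are stages (blue 1D, red 13D, green 26D). Lines join the values of a transcript and imply no order among replicates. In each panel the red and green points lie above the blue ones of that transcript.

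The rule did not compare 26D with 13D, and this comparison was tested. However, the rule did use the levels of both stages, as all 6 elder libraries had to lie above 1D. Selection thus limits how far either stage can fall towards 1D, and the values over all lncRNAs carry no such limit. With limma on log2(scaled TPM + 0.1) over the 6 libraries of these stages, 0 of the 150 were called at a Benjamini-Hochberg adjusted p under 0.05 with an absolute log2 fold change over 1, and 0 of all 19129 lncRNAs were (0%). At an unadjusted p under 0.05 limma had 8 of the 150, 7 higher and 1 lower at 26D, beside 5.28% of all lncRNAs, of which 1.44% of all were higher and 3.84% lower. The median log2 fold change of the 150 was -0.16, beside -0.24 over all lncRNAs. On TPM as deposited, these medians were -0.79 and -0.72.

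G7695 had the smallest unadjusted p of the 150 in limma, 0.00705, with a log2 fold change of 1.21 (SE 0.30) and an adjusted p of 0.736. G21807 had 0.874, 1.75 and 3.27 scaled TPM at 1D, 5.91, 4.90 and 5.10 at 13D, and 8.39, 8.60 and 7.83 at 26D, a log2 fold change of 0.64 (SE 0.19, limma unadjusted p 0.0152). G37308 had 3.77, 3.30 and 8.63 at 1D, 12.8, 13.8 and 21.7 at 13D, and 31.1, 24.5 and 34.7 at 26D, a log2 fold change of 0.93 (SE 0.28, limma unadjusted p 0.0177). In all 3, each 26D library was above each 13D library, and none passed the adjusted threshold.

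Among those lower at 26D, G22576 had 2.82, 2.17 and 3.23 scaled TPM at 1D, 12.6, 10.1 and 7.62 at 13D, and 5.79, 5.21 and 4.95 at 26D, a log2 fold change of -0.89 (SE 0.25, limma unadjusted p 0.0119). G18145 followed at -1.61 (SE 0.66, limma unadjusted p 0.0518). G3679 had 0.177, 0.283 and 0.624 at 1D, 2.02, 1.10 and 2.75 at 13D, and 1.16, 0.860 and 0.70 at 26D, a log2 fold change of -0.97 (SE 0.42, limma unadjusted p 0.0608). The adjusted p of each was 0.736, and 13D replicate 2 of G3679 lay below 26D replicate 1.

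Without a test, the libraries of 26D were all above those of 13D for 8 of the 150, where 2.12% of all lncRNAs were, and all below for G9185 and G22576, where 8% of all lncRNAs were. The mean was higher at 13D for 89 of the 150 (59.3%), beside 66.7% of all lncRNAs. This count was 134 on TPM as deposited, where 0 of the 150 were all above at 26D and 16 were all below. Over all 19129 lncRNAs as deposited, the mean was higher at 13D for 85.1%, 100 were all above at 26D and 2155 were all below. The ratio of 26D to 13D lay between 0.278 and 5.54 with a median of 0.924, and 125 of the 150 were between 0.5 and 2.

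**Figure D4:**
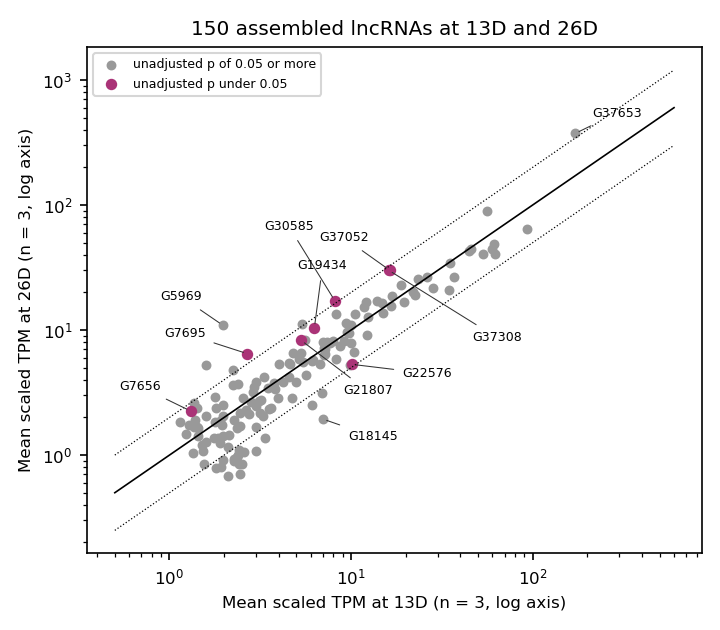
Mean scaled TPM of the 150 assembled lncRNAs at 13D (horizontal axis) and 26D (vertical axis), each a mean of 3 libraries on a log scale. The solid line marks equal means, the dotted lines mark ratios of 0.5 and 2, and the 8 lncRNAs with a limma unadjusted p under 0.05 are in purple. Of the 150, 125 lie between the dotted lines.

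The 150 together summed to 409, 483 and 541 scaled TPM at 1D, 1549, 1605 and 1510 at 13D, and 2155, 1773 and 1167 at 26D. The high sum of 26D replicate 1 includes the 824 of G37653. On TPM as deposited the sums were between 428 and 631 at 1D and between 995 and 2221 in the elder stages. The summed level of 19 measured markers of the B lineage, of 24 listed, was 1517 to 2206 scaled TPM at 1D, 3305 to 3816 at 13D and 4148 to 5441 at 26D, and 12 of the 19 had all elder libraries above 1D, beside 9.76% of all mRNAs. None of the 19 markers was at 0 in all libraries. A large part of the sum was CD74 alone, with 738 to 1131 at 1D, 1296 to 1740 at 13D and 1690 to 2655 at 26D. Without CD74 the sums of 13D and 26D overlapped, with 26D replicate 3 below all libraries of 13D, and 1D was still lowest. CD74 was not called against 1D at 13D or at 26D (limma adjusted p 0.245 and 0.151).

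In limma on log2(scaled TPM + 0.5), 7 of the 19 were called higher at 13D than at 1D, beside 1.97% of all mRNAs, and 0 were called lower, beside 7.53%. Their median log2 fold change was 1.03, beside -0.00 over all mRNAs. Of the markers called at 13D, those with the largest change are named first. TNFRSF13C, the receptor for the B cell survival factor BAFF, changed most (log2 fold change 1.99, SE 0.39, limma adjusted p 0.0204). CIITA, the regulator of class II MHC genes, rose by 1.29 on the log2 scale (limma adjusted p 0.0355) and CXCR4 by 1.24 (0.0247). BCL6, a transcriptional repressor active in B cells of the germinal centre, rose by 1.24 (limma adjusted p 0.0209). PAX5, EBF1 and CD79B were not called at 13D, with log2 fold changes of 1.04, 0.87 and 1.11 (limma adjusted p 0.0525, 0.0563 and 0.0604). RAG1, of low level, had log2 fold changes of 0.19 at 13D and -0.41 at 26D and was not called. At 26D against 1D, 6 of the 19 were called higher, beside 1.47% of all mRNAs, and 0 lower, beside 5.31%. The count of 7 fell to 0 without 1D replicate 1 or any 1 library of 13D and was 11 without 1D replicate 3. The count of 6 fell to 0 without 1D replicate 1, 26D replicate 1 or 26D replicate 2, was 2 without 1D replicate 2 and 9 without 26D replicate 3. On TPM as deposited the counts were 4 at 13D and 1 at 26D.

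Markers of other cells were summed in the same way. The 15 markers of extracellular matrix and fibroblasts summed to 1026 to 1738 scaled TPM at 1D, 297 to 370 at 13D and 168 to 517 at 26D, and 12 of the 15 had all elder libraries below 1D, beside 14.1% of all mRNAs. The 8 measured markers of smooth muscle summed to 405 to 673 at 1D, 54.1 to 123 at 13D and 47.2 to 200.1 at 26D. Of these 8, 7 had all elder libraries below 1D. Markers of the T lineage, 10 of 13 measured, summed to 25.8 to 38.4 at 1D, 23.2 to 31.8 at 13D and 26.1 to 64.0 at 26D. Of these 10, 0 had all elder libraries above 1D and 1 had all below. The 8 measured myeloid markers summed to 168 to 332 at 1D, 201 to 321 at 13D and 373 to 544 at 26D, so that 26D was above 1D in the sum, though 0 of the 8 had all elder libraries above 1D. A large part of this sum was SPI1 alone, with 87.5 to 174 at 1D, 145 to 243 at 13D and 234 to 431 at 26D. Without SPI1 the myeloid sums of 1D and 26D overlapped. The 6 measured epithelial markers summed to 228 to 441 at 1D, 218 to 246 at 13D and 228 to 241 at 26D. Most of this sum was EPCAM, with 153 to 369 at 1D, 177 to 209 at 13D and 186 to 204 at 26D. By single marker, 4 of the 6 had all elder libraries below 1D, beside 14.1% of all mRNAs. The 9 endothelial markers summed to 93.6 to 124, then 50.7 to 61.3, then 40.4 to 107, and the 4 measured erythroid markers to 4.49 to 17.2, then 1.47 to 2.17, then 1.01 to 1.23. All elder libraries were below 1D for 4 of the 9 endothelial and 1 of the 4 erythroid markers. Among the 26D libraries, replicate 3 was the highest for the matrix, smooth muscle, T lineage and endothelial sums and the lowest for the sum of the 150 lncRNAs. It was also the lowest for the epithelial sum and for the proliferation sum given next. For the B lineage, myeloid and erythroid sums it was neither. The 14 measured proliferation genes summed to 563 to 1288 at 1D, 1592 to 1922 at 13D and 1075 to 1906 at 26D. Of these 14, 2 had all elder libraries above 1D, beside 9.76% of all mRNAs. In limma 3 of the 14 were called higher at 13D than at 1D, beside 1.97% of all mRNAs, and 0 at 26D, beside 1.47%. Their median log2 fold change was 0.90 at 13D and 0.69 at 26D. The part of these cell types in the levels of the 150 lncRNAs was not tested.

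**Figure D5:**
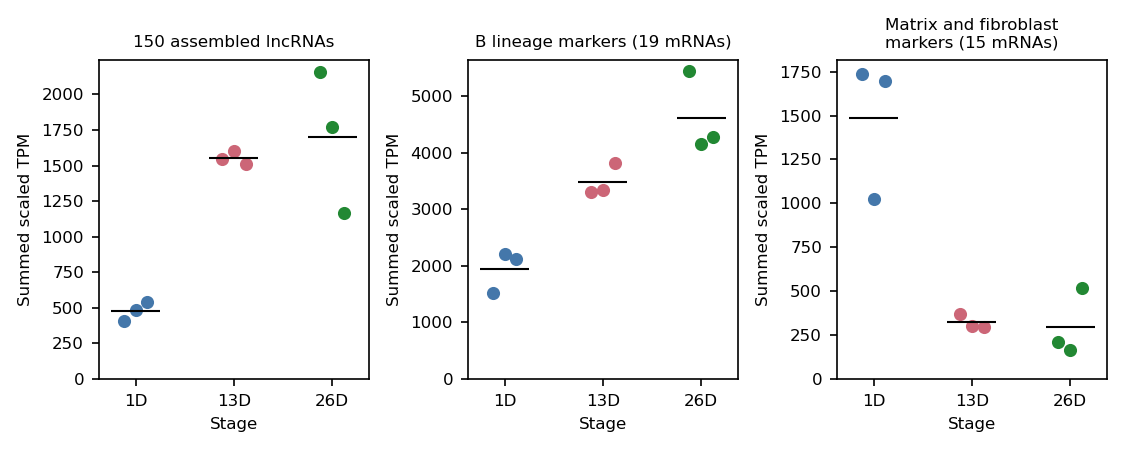
Summed scaled TPM by stage of the 150 assembled lncRNAs, of 19 B lineage marker mRNAs and of 15 extracellular matrix and fibroblast marker mRNAs. Each point is 1 library, the line is the mean of the 3 libraries of a stage, and the vertical axes start at 0. The lncRNAs and the B lineage markers are lowest at 1D, and the matrix markers are highest there. The B lineage sum includes CD74, without which 13D and 26D overlap.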

How the data were processed

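Libraries were made from total BF RNA depleted of ribosomal RNA, with strand kept. The authors mapped reads with STAR 2.6.0c to Cliv_1.0, assembled transcripts with Cufflinks 2.1.1 and TACO, and quantified them with Kallisto. The deposited values are TPM, kept for mRNAs that passed 0.5 TPM, and for lncRNAs that passed 0.1 TPM, somewhere among the libraries. TPM values are not counts, so edgeR, the tool of the study, was not run. TPM of assembled transcripts that share sequence are estimates that can be split between them.

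TPM was scaled by the library median as stated above, and the geometric mean of the medians was 12.9 TPM. R 4.3.3 with limma 3.58.1 (lmFit, eBayes with trend, no covariates, two-sided) was used on the 6 libraries of each pair of stages, on log2(scaled TPM + 0.1) for lncRNAs and + 0.5 for mRNAs, with Benjamini-Hochberg adjustment over all lncRNAs or all mRNAs. Plots were made in Python 3.11.15 with matplotlib 3.10.9. RefSeq's annotation of bColLiv1.pat.W.v2, not the authors' build, gave symbols for 12387 mRNAs. The fit was tested on simulated data.

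The members and the marker lists were chosen with earlier results of these data known. The lncRNAs named are the 8 most abundant, the 8 with the largest ratio, those beside a named mRNA, those at the edge of the selection, up to 3 higher and 3 lower with the smallest unadjusted p in 26D vs. 13D, the longest run of numbers, and the 2 with the lowest and the 2 with the highest coefficient of variation. Others, and the groups of near numbers, were chosen after their values were seen. Replicate numbers name different squabs. The deviations of same-numbered libraries of 13D and 26D had correlations of -0.04, 0.14 and -0.01 over lncRNAs. Over mRNAs and all pairs of stages they ranged from -0.22 to 0.26. The numbers were not used as pairs in the main fits, and a fit with replicate number as a block was run as an alternative.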

Additional observations from a re-analysis of the deposited data

How the results depend on the processing

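In 26D vs. 13D, limma called 2 lncRNAs with all 9 libraries in one fit and 10 with a pseudocount of 0.01, and 0 of the 150 in each alternative and each fit that left out a library. A higher mean at 13D was seen for 134 of the 150 on TPM as deposited and for 75 to 108 with a library left out. Stages that did not overlap were seen for 16 on TPM as deposited and for 13 to 38 with a library left out, against 10, beside 11.8%, 15.7% to 28.8% and 10.1% of all lncRNAs. The rule kept 69 of the 150 on TPM as deposited, 95 with a floor of 2 TPM and 98 to 140 with a library left out. The share of next numbers above 1D, 9.84%, was 1.64% on TPM as deposited and 21.6% with a floor of 0.1 TPM, beside 3.12%, 0.152% and 2.92% of all assembled lncRNAs outside the 150. B lineage calls in 13D vs. 1D (7) were 4 on TPM as deposited and 0 to 11 with a library left out. In 26D vs. 1D (6) they were 1 on TPM as deposited, 10 with all 9 libraries, 1 with the replicate block and 0 to 9 with a library left out. Over all mRNAs, calls in 26D vs. 1D (886, of which 192 higher) were 1709 on TPM as deposited (67 higher), 1406 with all 9 libraries, 461 with the replicate block and 9 to 1207 with a library left out, and in 13D vs. 1D (1241) they were 142 to 1742. With the replicate block, 26D vs. 13D had 0 lncRNAs called, and 13D vs. 1D had 883 mRNAs and 6 of the B lineage. Added after the data were seen were the counts of the 150 in the alternative fits of 26D vs. 13D, those that left out libraries for non-overlapping stages, and, for near numbers, steps of 1 or 10 and the rule without 26D replicate 1. TPM hold no read counts of single transcripts, so the error of low values is unknown. With 3 squabs a stage, a lncRNA that missed the threshold in 26D vs. 13D is not shown to be level.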

Other observations

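The annotated lncRNAs, which have an NCBI gene ID, were counted in the same way. Of 448 annotated lncRNAs with a mean of at least 1 TPM, 28 (6.25%) had all 6 elder libraries above 1D and 22 (4.91%) had all below. Of the 8687 assembled lncRNAs with that mean, 416 (4.79%) were above and 501 (5.77%) were below. The difference between the classes was not tested.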
